A study of Homo sapiens with 60 samples.

Results

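The comparison described here set 3 RNA libraries of 1321N1 cells exposed to mercury for 24 h against 3 libraries of non-treated cells harvested at that time, which are 6 of the 60 libraries of the series. 1321N1 is a human astrocytoma line that is used as an astrocyte-derived model. The mercury cells received 20 µM mercury chloride in full medium and the non-treated cells received no metal, and cells of both groups grew in the same serum-containing medium. The 54 other libraries come from the same line with cadmium chloride, sodium metaarsenite, mercury chloride or no metal at 1.5, 3, 6, 12 or 24 h, and they served here to estimate the spread and for the comparisons over time and with the other metals. The design text calls the 3 libraries of a group technical triplicates, so the p-values measure the spread between such replicates of 1 cell line and not between independent cultures or donors. The members are all genes with enough counts to be tested, 12341 of 62703 genes in the table.

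Inorganic mercury binds thiol groups tightly, and cells answer such an agent with several transcription programs. Misfolded protein releases HSF1, which switches on heat-shock chaperones, while modified KEAP1 releases NRF2, which switches on genes for glutathione, thioredoxin and NADPH. The integrated stress response slows translation and favours ATF4, whose targets take up and make amino acids, and the metal sensor MTF1 drives metallothioneins, small cysteine-rich proteins that hold zinc, cadmium and mercury. Cells that meet these stresses commonly slow their division, and the genes of replication and mitosis are then read less.

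The 6 libraries held between 3104825 and 3857780 counts, all of them from the 3′ ends of polyadenylated transcripts. Values below are counts relative to the library total (CPM), scaled by TMM factors, and a fold change is the log2 fold change (LFC) of mercury over non-treated cells with its standard error. Mitochondrially encoded transcripts took 7.10% to 7.23% of the counts with mercury and 5.54% to 6.81% in non-treated cells. Non-treated replicate 3 stood further from the other non-treated libraries (chi-square per degree of freedom 5.28 and 5.86) than these did from each other (3.09), and the mercury pairs lay between 2.62 and 3.07. Of 20 astrocyte markers, 10 were above 1 CPM on average, among them VIM, CD44, NFIA, NFIB and SOX9, while GFAP, ALDH1L1, AQP4 and FABP7 had 0 counts in all 6 libraries. None of 10 microglia and macrophage markers was above 1 CPM, and their summed level was between 0 and 2.77 CPM without and between 1.24 and 3.96 CPM with mercury. The summed astrocyte markers overlapped between the groups, at 4440 to 4950 CPM with mercury and 4390 to 5170 CPM without. The summed neuron markers overlapped too (28.0 to 38.4 and 25.2 to 33.7 CPM; 6 of 12 at 0), while the sum over 8 oligodendrocyte markers was lower with mercury (45.9 to 49.6 against 53.1 to 71.0 CPM; 5 at 0) and that over 10 endothelial and epithelial markers higher (88.3 to 97.1 against 63.4 to 66.4 CPM; 3 at 0). The former sum was nearly all CNP, which did not pass the test, and OLIG2 went from 2 to 9 counts. The latter was mostly KRT18, with a mean of 52.9 CPM without and 87.5 CPM with mercury, whereas KRT8 was lower with mercury (10.2 and 4.62 CPM). The part of such shifts in the results below was not tested.

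At 24 h, 598 genes were higher and 323 lower with mercury at an adjusted p under 0.05 and an LFC beyond 1 in either direction, which is 4.85% and 2.62% of the genes tested. At any size of change the numbers were even: 1712 genes rose (13.9%) and 1721 fell (13.9%) at an adjusted p under 0.05. What set the directions apart was therefore the size of the change. Among the 598 higher genes, 153 had an LFC above 2 and 43 above 3, with a median of 1.49, while among the 323 lower genes 49 had an LFC below -2 and 10 below -3, with a median of -1.31. The median over all genes tested was -0.02. Among lower genes with at least 20 counts on average over the 6 libraries, CTDSP1 alone was below -3. COPZ2 (LFC -2.04) had the smallest of their falls below -2. Both sets also held genes with fewer counts, some of them near 0 with or without mercury. In 571 of the 598 higher genes every mercury library was above every non-treated one, against 18.9% of all genes, and in 299 of the 323 lower genes every mercury library was below, against 19.1% of all genes. Both sets were less abundant in non-treated cells than genes in general, with medians of 8.37 CPM for the higher and 14.2 CPM for the lower genes against 21.6 CPM for all genes. Of the lower genes, 13.9% were annotated as long non-coding RNAs, against 8.19% of the higher genes and 8.84% of all genes.

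**Figure D1:**
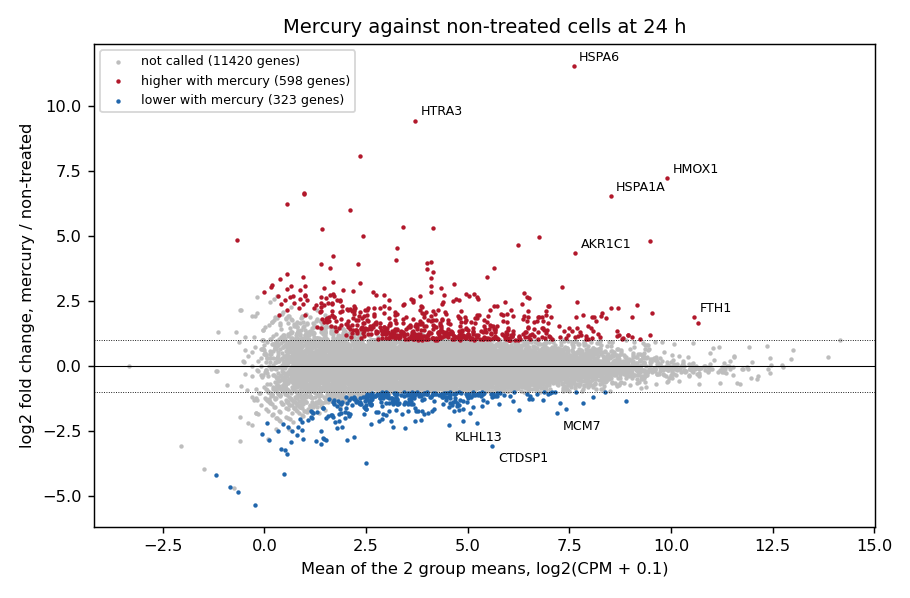
Log2 fold change of mercury over non-treated cells at 24 h (vertical) against the mean of the group means on a log2(CPM + 0.1) scale (horizontal) for the 12341 genes tested. Red points are the 598 genes called higher, blue points the 323 called lower, dotted lines mark an LFC of 1 and -1, and the rises reach further from 0 than the falls.

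The largest fall among genes with at least 20 counts on average over the 6 libraries was that of CTDSP1, a phosphatase that acts on the tail of RNA polymerase II (chr2:218398256-218405941 in GRCh38). Its level was 8.18, 5.58 and 17.5 CPM with mercury and 96.3, 91.3 and 73.3 CPM in non-treated cells, an 8.4-fold decrease (LFC -3.07 ± 0.21, adjusted p = 7.32e-20). The groups did not overlap, and mercury replicate 3 was the highest of the mercury libraries. KLHL13, a substrate adaptor of the CUL3 ubiquitin ligase encoded on the X chromosome, stood at 9.13, 8.06 and 6.61 CPM with mercury and 34.5, 39.3 and 41.5 CPM in non-treated cells (LFC -2.27 ± 0.22, adjusted p = 3.36e-13). SCN3A, a voltage-gated sodium channel subunit, had 10.7, 12.7 and 9.25 CPM with mercury and 50.7, 50.1 and 42.1 CPM in non-treated cells (LFC -2.12 ± 0.20, adjusted p = 1.44e-13). All 3 mercury libraries were thus below 13 CPM for a gene that non-treated cells held above 42 CPM. The secreted carboxypeptidase CPA4 read 12, 17.4 and 11.2 CPM with mercury and 53.8, 58.1 and 72.7 CPM in non-treated cells (LFC -2.18 ± 0.25). CPA4 also differed between the non-treated groups, at a higher level at 24 h than at 12 h (LFC 1.05, adjusted p = 0.00503), and with the non-treated cells of all 5 time points as control the log2 fold change of CPA4 was -1.51.

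**Figure D2:**
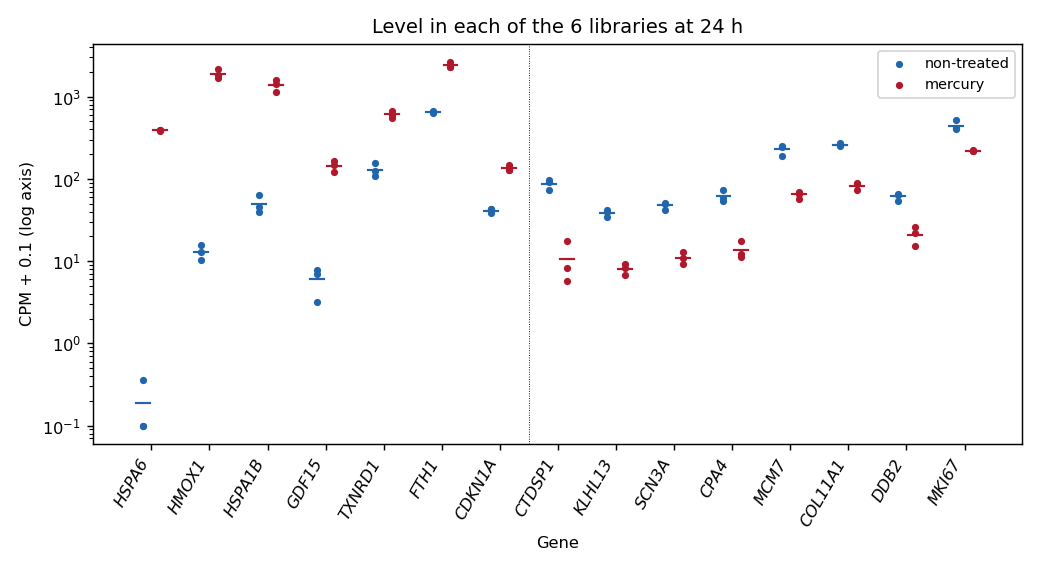
Level of 15 genes in each of the 6 libraries at 24 h, as CPM + 0.1 on a log axis, with 1 point per library and a bar at the mean of 3. Genes left of the dotted line rose and genes right of it fell, and in each of the 15 the mercury points (red) lie apart from the non-treated points (blue).

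The other large falls were spread over unrelated functions. LFNG, the Fringe enzyme that adds sugars to Notch receptors, read 5.04, 5.27 and 4.3 CPM with mercury and 19.8, 24.6 and 19 CPM in non-treated cells (LFC -2.11 ± 0.31, adjusted p = 9.85e-08). CCS, the copper chaperone that loads superoxide dismutase 1, read 2.52, 1.86 and 3.3 CPM with mercury and 11.1, 15.4 and 7.21 CPM in non-treated cells (LFC -2.12 ± 0.40). NAA80, the enzyme that acetylates the start of actin, had 4.72, 1.86 and 2.97 CPM with mercury and 13.1, 18.1 and 10.4 CPM in non-treated cells (LFC -2.11 ± 0.39). The groups did not overlap in any of these genes, but at such low levels the standard errors were wider than for CTDSP1. RRAS (a Ras-family GTPase, LFC -2.08), MEGF6 (a protein of EGF repeats, -2.38), DISP2 (a relative of the Hedgehog release protein Dispatched, -2.36), BDKRB2 (the bradykinin B2 receptor, -2.22, with a spread of 0.62 to 4.72 CPM among the mercury libraries), COPZ2 (a coatomer subunit, -2.04), FBXL15 (an F-box subunit of a ubiquitin ligase, -1.90) and SAMD11 (-1.86) fell with adjusted p between 1.24e-09 and 8.34e-04. In each of these 7 genes all mercury libraries were below all non-treated ones. SP3P (LFC -1.85) is a pseudogene whose reads could in part belong to its parent gene, so its value is uncertain.

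Genes of cell division fell by small amounts and in large number. Of 83 tested genes of G2 and mitosis, 46 fell and 2 rose at an adjusted p under 0.05, with a median LFC of -0.41, and 4 fell past an LFC of -1. These 4 were CCNF (cyclin F), GTSE1, MKI67 (the Ki-67 protein of dividing cells) and CDC20 (an activator of the anaphase-promoting complex). MKI67 had 222, 219.7 and 219 CPM with mercury and 514, 420.2 and 400.5 CPM in non-treated cells (LFC -1.01 ± 0.11, adjusted p = 4.95e-11). CCNF read 32.4, 29.1 and 34.4 CPM with mercury and 71.1, 71 and 69.2 CPM in non-treated cells (LFC -1.14 ± 0.16), and CDC20 read 91.3, 84.6 and 93.8 CPM with mercury and 180.3, 176 and 189 CPM in non-treated cells (LFC -1.01 ± 0.11). In all 3 genes the groups stood apart, with a decrease close to 2-fold, and small shifts moved genes across the limit: 2 of the 83 passed it without non-treated replicate 1 and 1 with an offset for GC content, while the number that fell at any size stayed between 41 and 47 whichever library was left out. Bulk RNA does not tell fewer dividing cells from less of these transcripts in each cell. Of 69 genes of DNA replication and S phase, 15 fell and 5 rose, with a median LFC of -0.14 (28 fell when the non-treated cells of all time points served as control). A single gene moved much further than the others that fell. MCM7, a subunit of the replicative helicase (chr7:100092728-100101940), read 66.1, 57.6 and 70 CPM with mercury and 243, 254 and 190.4 CPM in non-treated cells (LFC -1.83 ± 0.14, adjusted p = 2.37e-17). ORC6, a subunit of the origin recognition complex, went the other way with 55.7, 58.9 and 72.7 CPM with mercury and 34.5, 19.7 and 21.4 CPM in non-treated cells (LFC 1.30 ± 0.18).

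The promoter of MCM7 is shown because E2F, the factor that ties replication genes to the cell cycle, is known to act through motifs of this kind. In the RefSeq window of 300 bases around the start (250 before and 50 after; GRCh38.p14), the capitals mark a match on either strand to TTTGGCGC or TTTCCCGC.
MCM7 promoter, chr7:100101348-100101647, minus strand: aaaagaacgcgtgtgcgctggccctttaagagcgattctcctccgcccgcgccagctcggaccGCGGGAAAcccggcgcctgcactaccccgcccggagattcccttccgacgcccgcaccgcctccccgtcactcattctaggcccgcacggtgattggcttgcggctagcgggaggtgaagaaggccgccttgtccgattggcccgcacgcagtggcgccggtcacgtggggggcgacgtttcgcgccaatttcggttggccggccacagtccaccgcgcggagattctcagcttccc
Such a match was present in 11 of the 229 lower genes with a promoter in the table (4.80%) and in 17 of 456 higher genes (3.73%). Of 9428 tested genes 365 held it (3.87%), and of all 27305 promoters 2.31% did. The share in lower genes was thus close to that of tested genes. A match describes letters in this window and not a bound factor.

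Linker and core histone genes also fell. Of 27 tested histone genes, 8 fell and 0 rose at an adjusted p under 0.05, and 6 passed an LFC of -1, with a list median of -0.64 (4 passed without mercury replicate 1, non-treated replicate 1 or non-treated replicate 2). H1-2, a linker histone, had 62.9, 66.3 and 69.1 CPM with mercury and 181, 179 and 129.8 CPM in non-treated cells (LFC -1.31 ± 0.19, adjusted p = 1.56e-07), and the core histone gene H2AC20 had 3.78, 5.58 and 3.63 CPM with mercury and 14.9, 14.1 and 13.8 CPM in non-treated cells (LFC -1.71 ± 0.34). H1-10 read 79.6, 90.2 and 84.9 CPM with mercury and 184, 216 and 123 CPM in non-treated cells (LFC -1.04 ± 0.16). Non-treated replicate 3 was the lowest of its group for all 3 genes, and still above every mercury library. Most histone messages end without a poly(A) tail, and the assay primes on poly(A), so such messages are largely missed by it.

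Among the targets of p53, the falls were as many as the rises, with 5 genes each way at an adjusted p under 0.05 among 24 tested and a median LFC of -0.04. DDB2, which recognises ultraviolet damage in DNA, went down with 25.8, 15.2 and 21.8 CPM with mercury and 66.2, 63.9 and 53.1 CPM in non-treated cells (LFC -1.55 ± 0.20, adjusted p = 2.06e-09). FDXR, which passes electrons in mitochondria, and TP53I3, a quinone reductase, fell as well (LFC -1.13 and -1.06). Against these, the cell cycle inhibitor CDKN1A rose, at 128, 127 and 148 CPM with mercury and 42.5, 38.1 and 42.4 CPM in non-treated cells (LFC 1.71 ± 0.15, adjusted p = 1.71e-14), and so did GADD45A, with 334, 349 and 282 CPM with mercury and 72.4, 72.5 and 115 CPM in non-treated cells (LFC 1.89 ± 0.17), TNFRSF10B (LFC 1.24) and PLK3 (LFC 1.23). GADD45A, TNFRSF10B and CDKN1A are known to answer to other stress factors besides p53. The list held 7 genes past an LFC of 1 in either direction, 4 higher and 3 lower, and 3 rather than 5 genes fell at any size without mercury replicate 2 or without non-treated replicate 1. With either offset for GC content, 4 genes were called higher and 1 lower.

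Matrix and surface genes split, with more falls than rises. Of 57 tested genes for collagens, laminins and other matrix proteins, 18 fell and 11 rose, with a median LFC of -0.09. COL11A1, a chain of a fibril collagen, was the clearest of the falls with 88.1, 73.8 and 87.2 CPM with mercury and 248, 269.6 and 260.0 CPM in non-treated cells (LFC -1.64 ± 0.10, adjusted p = 8.76e-22). FBN1, which builds microfibrils, had 64.2, 48 and 59.5 CPM with mercury and 149.6, 111 and 124 CPM in non-treated cells (LFC -1.17 ± 0.13), and LAMB2 and COL5A2 passed the limit as well (LFC -1.04 for LAMB2, and 95.4, 95.1 and 90.9 CPM with mercury and 186, 157 and 219 CPM in non-treated cells for COL5A2). The matrix proteases of the list rose. ADAMTS1 had 123, 134 and 135 CPM with mercury and 33.7, 30.7 and 40.1 CPM in non-treated cells (LFC 1.91 ± 0.16), and MMP3 gave 78 counts over the 3 mercury libraries against 1 count over the non-treated ones, a ratio of 87.7 (95% interval of counting error 15.3 to 3507). Of 36 genes of integrins, cadherins and adhesion 10 fell and 2 rose, and of 39 targets of YAP, TEAD and SRF 13 fell and 6 rose; no member of either list passed an LFC of 1 in either direction. The focal adhesion protein VCL, the member with the lowest p of the adhesion list, read 98.8, 128 and 119 CPM with mercury and 210.4, 196 and 218 CPM in non-treated cells (LFC -0.85 ± 0.10).

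Some lists of energy metabolism, ribosome assembly and lipid synthesis held more falls than rises. For 72 nuclear genes of oxidative phosphorylation, 20 fell and 4 rose, with a median LFC of -0.15 and the complex III subunit UQCRC1 at 64.8, 80.3 and 79 CPM with mercury and 128, 123 and 122 CPM in non-treated cells (LFC -0.74 ± 0.12). Of 52 genes of ribosome biogenesis 19 fell and 2 rose, and BOP1, a processing factor of the large subunit RNA, had 28.3, 41.5 and 43 CPM with mercury and 88.3, 83.9 and 71 CPM in non-treated cells (LFC -1.11 ± 0.15). Cytosolic ribosomal protein genes fell in 9 of 77 and rose in 0, a share of falls under the 13.9% of all genes, and the number of falls was 3, 5, 4 and 1 without mercury replicate 1, mercury replicate 2, non-treated replicate 1 and non-treated replicate 2. The nuclear oxidative phosphorylation genes gave 13 falls without mercury replicate 1 and 12 without non-treated replicate 1, and ribosome biogenesis 12 without mercury replicate 3, non-treated replicate 1 or non-treated replicate 2. In the list of cholesterol synthesis and uptake, 11 of 30 genes fell and 4 rose. SREBF1, a regulator of lipid synthesis, fell (LFC -1.04), and the cholesterol exporter ABCA1 and the LDL receptor ligase MYLIP rose (LFC 2.43 and 2.15). Fatty acid synthase, FASN, read 187, 202 and 195 CPM with mercury and 372, 324 and 342 CPM in non-treated cells (LFC -0.83 ± 0.11), a fall of less than 2-fold. This gene was picked after its value was seen. Its list of fatty acid synthesis and oxidation was split, with 5 of 28 genes lower and 4 higher, where 13.9% of all genes went each way. Of 22 tubulin and microtubule genes, 8 fell and 4 rose.

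Genes rich in G and C fell more often than others. Genes called lower had a median GC content of 57.3% in their longest transcript, against 46.2% for genes called higher and 47.1% for all genes tested. When all genes were ordered by GC content and divided into 10 bins of equal size, the share called lower was between 0.729% and 1.46% in the 6 lowest bins and reached 8.02% in the highest, while the share called higher stayed between 3.73% and 5.75%. The median LFC went from 0.14 in the lowest bin to -0.35 in the highest. Library by library, the top bin less the bottom bin deviated from the mean of the 6 libraries by -0.28, -0.23 and -0.15 with mercury and by 0.31, 0.32 and 0.03 in non-treated replicates 1, 2 and 3, so replicate 3 lay between the groups. A difference between these bins in that direction was found after 12 h of mercury, with medians of 0.10 and -0.25, and was smaller at 6 h, with -0.01 and -0.06. Arsenic at 24 h, against the same non-treated libraries, gave medians of 0.11 and -0.20 in these bins. Cadmium at 24 h, with the same control, gave 0.007 and -0.014. With an offset for GC content in each library, 601 genes were higher and 239 lower, and 209 of the 323 lower genes kept their call; all 323 kept a negative sign. The log2 fold change of CTDSP1 was then -2.82 and the log2 fold change of MCM7 was -1.64, and 52 of 83 genes of G2 and mitosis fell. The part of base composition in the falls was not tested further, and an effect on the cells and one on the libraries cannot be told apart here. Genes called lower also had shorter loci, with a median of 14500 bases against 31610 for all genes.

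**Figure D3:**
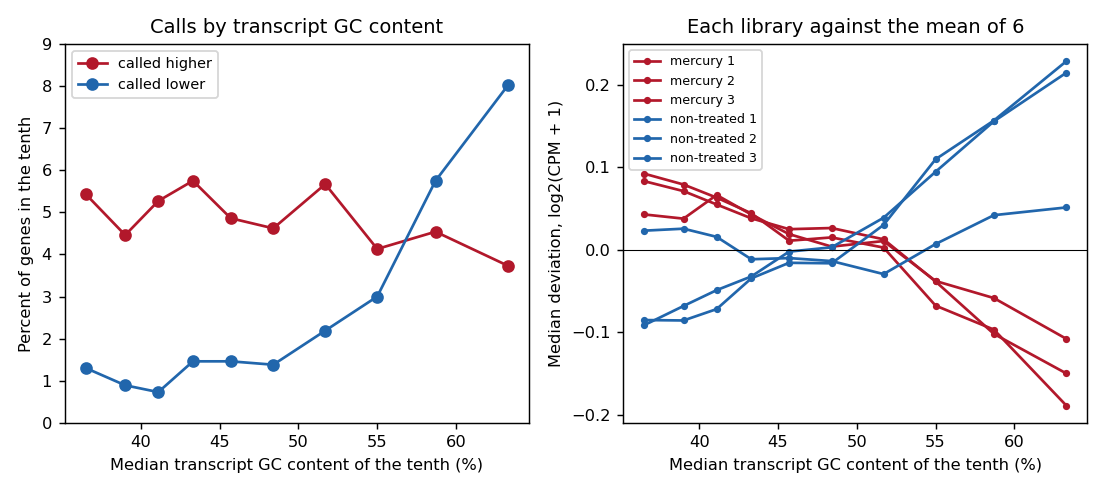
Left, percent of genes called higher (red) and lower (blue) in 10 equal bins of all tested genes ordered by transcript GC content, against the median GC content of the bin. Right, median deviation of each library from the mean of the 6 libraries on the log2(CPM + 1) scale in the same bins; the mercury libraries fall with GC content, non-treated replicates 1 and 2 rise, and non-treated replicate 3 lies between.

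The heat-shock chaperone genes HSPA6, HSPA1A, HSPB8 and HSPA1B were 4 of the 8 largest rises among genes with at least 20 counts on average. Of 13 tested HSP70 and HSP110 genes, 12 rose and 8 passed an LFC of 1, with a list median of 1.05. HSPA6, an HSP70 that most unstressed cells do not make, gave 3670 counts over the mercury libraries, with 380.5, 396 and 391 CPM, and 1 count over the non-treated ones, a ratio of 4126 (95% interval of counting error 740 to 163000). HSPA1A and HSPA1B, the main inducible HSP70 genes, lie side by side on chromosome 6 and are nearly identical in sequence, so the division of reads between them is uncertain. HSPA1B had 1430.4, 1597 and 1136 CPM with mercury and 45.8, 40 and 63.5 CPM in non-treated cells (LFC 4.80 ± 0.17), and HSPA1A had 672, 842 and 657 CPM with mercury and 10.6, 5.84 and 6.92 CPM in non-treated cells (LFC 6.51 ± 0.20). HSPA9 and HSPH1 moved less. HSPA9 of mitochondria had 614, 575 and 609 CPM with mercury and 275, 284 and 313 CPM in non-treated cells (LFC 1.04 ± 0.08). The HSP110 gene HSPH1 had 823, 827 and 813 CPM with mercury and 221, 225 and 229 CPM in non-treated cells (LFC 1.86 ± 0.08). Of 22 co-chaperones 11 rose and 2 fell. BAG3 (LFC 2.45), DNAJB1 (LFC 2.33), DNAJB4 (LFC 1.96), DNAJB6 and DNAJA1 (LFC 1.13) passed the limit. Of 28 small heat-shock, HSP90 and chaperonin genes 20 rose and 0 fell. HSPB8, a partner of BAG3, varied widely among the mercury libraries, with 60.1, 34.1 and 8.92 CPM with mercury and 0.773, 0 and 1.73 CPM in non-treated cells.

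Promoters of 3 of these genes are shown because they hold the element that HSF1 reads. Capitals mark GAANNTTCNNGAA or its reverse complement, that is 3 alternating units of the heat-shock element, in the same kind of RefSeq window; overlapping matches run together.
HSPA6 promoter, chr1:161524290-161524589, plus strand: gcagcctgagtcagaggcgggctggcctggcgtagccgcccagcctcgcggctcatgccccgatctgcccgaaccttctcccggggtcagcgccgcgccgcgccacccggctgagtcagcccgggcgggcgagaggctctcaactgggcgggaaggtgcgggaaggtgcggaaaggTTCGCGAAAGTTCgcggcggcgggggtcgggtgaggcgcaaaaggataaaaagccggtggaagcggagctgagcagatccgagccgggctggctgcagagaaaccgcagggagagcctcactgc
CHORDC1 promoter, chr11:90223000-90223299, minus strand: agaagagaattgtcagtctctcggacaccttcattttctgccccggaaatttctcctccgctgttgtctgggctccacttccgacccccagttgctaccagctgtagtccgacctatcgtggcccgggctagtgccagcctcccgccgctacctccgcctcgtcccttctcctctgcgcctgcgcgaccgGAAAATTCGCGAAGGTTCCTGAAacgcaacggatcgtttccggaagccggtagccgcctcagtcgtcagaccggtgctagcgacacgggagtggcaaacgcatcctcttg
DNAJA1 promoter, chr9:33025023-33025322, plus strand: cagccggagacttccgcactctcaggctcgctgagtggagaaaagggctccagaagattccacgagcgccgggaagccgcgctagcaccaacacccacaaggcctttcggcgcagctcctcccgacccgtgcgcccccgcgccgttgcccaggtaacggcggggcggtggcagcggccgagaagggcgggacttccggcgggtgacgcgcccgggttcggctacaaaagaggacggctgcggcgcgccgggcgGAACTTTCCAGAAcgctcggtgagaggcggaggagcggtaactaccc
Among 9428 tested genes with a promoter in the table, 30 held this element (0.318%), and among all 27305 promoters 0.487% did. It was found in 7 of 456 higher genes (1.54%) and in 0 of 229 lower ones. The 7 were HSPA6, PAPPA2, ABHD3, CHORDC1, SERPINH1, DNAJB6 and DNAJA1. Of the heat-shock rises named above, HSPA1A, HSPA1B, HSPB8, BAG3, DNAJB1, DNAJB4 and HSPH1 were not among the 30 genes with a promoter in the table and a match. CHORDC1, an HSP90 partner, carried 3 overlapping matches and read 185, 174 and 149.7 CPM with mercury and 63.9, 56.3 and 64.9 CPM in non-treated cells (LFC 1.46 ± 0.13). DNAJA1, with 1 match, read 563, 559 and 565 CPM with mercury and 245, 269 and 257 CPM in non-treated cells (LFC 1.13 ± 0.07). Of the 30 genes 10 rose and 1 fell at an adjusted p under 0.05, with a median LFC of 0.35, so most genes with the letters did not pass the test.

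The integrated stress response list was the one with the largest share of higher genes: of 22 tested regulators and outputs of the ATF4 branch, 21 rose and 0 fell, and 18 passed an LFC of 1. GDF15, a secreted stress factor, had 146, 165 and 123 CPM with mercury and 3.09, 7.69 and 6.92 CPM in non-treated cells (LFC 4.63 ± 0.27, adjusted p = 2.63e-23). The transcription factor ATF3 had 98.2, 84.3 and 95.5 CPM with mercury and 6.7, 7.38 and 6.64 CPM in non-treated cells (LFC 3.74 ± 0.26), and NUPR1, a stress regulator, had 9.76, 6.82 and 10.2 CPM with mercury and 0.258, 1.84 and 0.866 CPM in non-treated cells (LFC 3.18 ± 0.56). Genes that supply amino acids rose in part. Of 20 amino acid transporters 13 rose and 0 fell, among them SLC6A9, which carries glycine (55.4, 42.8 and 41 CPM with mercury and 11.8, 9.22 and 11.3 CPM in non-treated cells), and SLC7A5, which carries leucine with its partner SLC3A2 (154, 199 and 185 CPM with mercury and 46.9, 62.4 and 35.8 CPM in non-treated cells). In serine, one-carbon, proline and asparagine synthesis, 6 of 15 genes rose and 2 fell. CTH, which makes cysteine from cystathionine, rose 10.3-fold with 31.8, 34.7 and 27.1 CPM with mercury and 3.86, 1.54 and 3.46 CPM in non-treated cells (LFC 3.36 ± 0.33), and MTHFD2 of the mitochondrial folate pathway rose 3.28-fold (LFC 1.72 ± 0.11). PYCR3, a proline-forming reductase, fell with 6.29, 3.41 and 6.94 CPM with mercury and 13.7, 15.7 and 11 CPM in non-treated cells (LFC -1.27 ± 0.27). tRNA synthetases went both ways, with 11 of 20 higher and 6 lower at an adjusted p under 0.05, and GARS1 and WARS1 passed an LFC of 1, GARS1 with 254, 279 and 278 CPM with mercury and 121, 96.2 and 103 CPM in non-treated cells.

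CHAC1, which degrades glutathione and is a known output of the ATF4 branch, is shown with its promoter, where capitals mark a match on either strand to TGATGNAA, the core of the amino acid response element.
CHAC1 promoter, chr15:40953221-40953520, plus strand: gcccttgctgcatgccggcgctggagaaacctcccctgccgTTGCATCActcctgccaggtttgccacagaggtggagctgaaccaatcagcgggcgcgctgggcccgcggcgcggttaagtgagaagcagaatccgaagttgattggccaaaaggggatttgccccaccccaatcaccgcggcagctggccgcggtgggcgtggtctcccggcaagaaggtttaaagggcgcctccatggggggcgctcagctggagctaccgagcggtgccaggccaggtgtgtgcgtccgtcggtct
Its level was 28, 33.5 and 29.1 CPM with mercury and 4.12, 4 and 2.6 CPM in non-treated cells (LFC 3.06 ± 0.32, adjusted p = 6.63e-12). The same letters were present in 3.07% of higher genes with a promoter (14 genes), 1.75% of lower genes, 1.63% of all tested genes and 3.67% of all promoters in the table. The share in higher genes thus lay above that of tested genes and below that of all promoters. Other motifs were counted in the same way. In higher, lower and all tested genes, the metal response element was present in 34.4%, 38.4% and 39.4%. The core of the antioxidant response element was present in 18.4%, 17.9% and 15.2%, and the CCAAT box in 39.9%, 41.5% and 37.8%.

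Oxidant defence genes rose in most of their lists. HMOX1, the heme-degrading oxygenase (chr22:35380361-35394214), read 1852, 2164 and 1700.0 CPM with mercury and 10.3, 15.7 and 13 CPM in non-treated cells and gave the smallest adjusted p of the genes named here (LFC 7.21 ± 0.18, adjusted p = 7.11e-43). Of 40 genes of thioredoxin, reductases and NADPH production, 25 rose, 1 fell and 13 passed an LFC of 1. AKR1C1, an aldo-keto reductase, had 376, 412 and 355 CPM with mercury and 17, 17.5 and 21.9 CPM in non-treated cells (LFC 4.34 ± 0.15); its paralogues AKR1C2 and AKR1C3 rose too (LFC 2.98 and 1.71), and near-identical sequence makes the split between them uncertain. TXNRD1, the selenoenzyme that recharges thioredoxin, read 606, 664 and 555 CPM with mercury and 107, 126 and 156 CPM in non-treated cells (LFC 2.23 ± 0.15). It was the 1 gene past the limit among 21 tested selenoprotein genes, of which 5 rose and 4 fell (3 rose without non-treated replicate 1 or 3). GCLM, a subunit of the rate-limiting enzyme of glutathione synthesis, had 500.4, 527 and 507 CPM with mercury and 122, 130.3 and 123 CPM in non-treated cells (LFC 2.03 ± 0.10), and ABCC2, an exporter of glutathione conjugates, had 99.8, 82.7 and 94.8 CPM with mercury and 29.4, 32.6 and 39.8 CPM in non-treated cells (LFC 1.45 ± 0.18). The ferritin genes FTH1 and FTL, for iron storage, rose 3.68-fold and 3.1-fold, with 2273, 2306 and 2630.1 CPM with mercury and 649, 670.5 and 642 CPM in non-treated cells for FTH1. For heme and iron handling as a whole, 10 of 24 genes rose and 3 fell.

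Metallothionein genes rose by small folds. Of 20 tested metallothionein and zinc transporter genes, 8 rose and 1 fell, with a median LFC of 0.12. MT1E read 327, 343 and 326 CPM with mercury and 158, 161 and 174 CPM in non-treated cells (LFC 1.02 ± 0.11, adjusted p = 7.57e-12), and the zinc exporter SLC30A1 read 104, 87.4 and 86.9 CPM with mercury and 42.2, 37.5 and 44.1 CPM in non-treated cells (LFC 1.17 ± 0.14, adjusted p = 1.52e-10). MT2A, the most abundant, had 2824, 2915 and 3028 CPM with mercury and 1852, 1759 and 1649.5 CPM in non-treated cells (LFC 0.74 ± 0.19, adjusted p = 0.00169). The non-treated level of MT2A differed between time points (adjusted p = 2.40e-04), at 3798 ± 1243 CPM (SD, n = 3) at 12 h and 1753 ± 101 CPM at 24 h, and with the non-treated cells of all time points as control the log2 fold change of MT2A was 0.17 (adjusted p = 0.373). Metallothionein genes are close paralogues, so reads may be shared or lost between them.

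Genes for the removal of damaged protein rose, the proteasome by small folds and single others by large ones. Of 32 proteasome subunits 18 rose and 0 fell, with a median LFC of 0.34 and none past an LFC of 1; PSMC6, the member with the lowest p, read 140.1, 142 and 136 CPM with mercury and 72.6, 70.7 and 92.9 CPM in non-treated cells (LFC 0.82 ± 0.12). Of 35 genes of autophagy receptors, lysosome and ubiquitin, 24 rose and 1 fell, and 8 passed the limit. ZFAND2A, which binds the proteasome under stress, had 196, 219.7 and 209 CPM with mercury and 4.38, 11.4 and 4.62 CPM in non-treated cells (LFC 4.96 ± 0.25), and the autophagy receptor SQSTM1 had 1177, 1230.0 and 1133 CPM with mercury and 314, 307 and 255 CPM in non-treated cells (LFC 2.01 ± 0.09). The ATG8 homologue GABARAPL1 went from 1.55 to 2.46 CPM in non-treated cells to between 27.1 and 40.0 CPM. In the endoplasmic reticulum list 15 of 33 rose and 1 fell, with the degradation factor HERPUD1 at LFC 1.69 and the co-chaperone DNAJB9 at LFC 1.75.

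Immediate-early and signalling genes rose in number. Of 25 AP-1 and other immediate-early genes, 18 rose and 3 fell, with 9 past an LFC of 1. FOSB, a FOS-family subunit of AP-1, read 23.6, 17 and 20.8 CPM with mercury and 0.773, 0.615 and 0 CPM in non-treated cells (LFC 5.34 ± 0.77). FOS itself gave 98 counts over the mercury libraries and 3 over the non-treated ones, a ratio of 36.7 (95% interval of counting error 12.2 to 181), and mercury replicate 3 was the lowest. IER3 had 46.3, 35.9 and 28.1 CPM with mercury and 5.15, 6.76 and 4.91 CPM in non-treated cells (LFC 2.71 ± 0.37). Of 20 DUSP and Sprouty genes, which switch such signals off, 8 rose and 2 fell; DUSP5 had 91, 107 and 108 CPM with mercury and 16.7, 18.1 and 21.1 CPM in non-treated cells (LFC 2.45 ± 0.19) and DUSP1 an LFC of 1.91. In the list of NF-kB feedback and cytokines 7 of 20 rose (4 without non-treated replicate 1) and 2 fell. IL11 rose with 10.7, 14.6 and 9.25 CPM with mercury and 1.03, 2.15 and 2.02 CPM in non-treated cells (LFC 2.72 ± 0.56), while BIRC3, an inhibitor of apoptosis, fell with 15.1, 10.5 and 18.2 CPM with mercury and 41.7, 32 and 43 CPM in non-treated cells (LFC -1.42 ± 0.18). Of 24 genes of the BCL2 family and death receptors 9 rose and 3 fell: the BH3-only gene PMAIP1 rose (LFC 1.54), and the death receptor TNFRSF21 fell (LFC -1.08). Growth factor genes went both ways, with HBEGF at LFC 1.89, the Notch target HES1 at 1.53 and the binding protein IGFBP3 at -1.05.

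Smaller lists added single genes. MXD1, a MAX partner that opposes MYC, rose 10.6-fold with 88.4, 85.8 and 69.1 CPM with mercury and 3.09, 12.6 and 7.79 CPM in non-treated cells (LFC 3.40 ± 0.27). Of 12 genes of polyamine metabolism 5 rose and 2 fell, and the polyamine-consuming SAT1 had 154, 132 and 153 CPM with mercury and 34.5, 28.3 and 38.7 CPM in non-treated cells (LFC 2.11 ± 0.15). The glucose transporter SLC2A3 rose with 74.3, 69.7 and 66.4 CPM with mercury and 24, 24 and 25.1 CPM in non-treated cells (LFC 1.53 ± 0.17), and SLC2A6 fell with 20.8, 11.2 and 10.2 CPM with mercury and 37.1, 25.2 and 36.4 CPM in non-treated cells (LFC -1.23 ± 0.23). Of 133 zinc finger genes of chromosome 19, 19 rose, a share close to the 13.9% of all genes, and 1 fell, with 8 past an LFC of 1 (4.85% of all genes were) and a median LFC of 0.24; the rises were 12 without mercury replicate 1 or non-treated replicate 1 and 11 without non-treated replicate 2. The histone demethylase genes KDM7A and KDM6B rose (LFC 2.90 and 1.35). CLU, a secreted chaperone on the astrocyte marker list, rose 4.97-fold with 214, 223 and 187 CPM with mercury and 45.8, 46.7 and 32.9 CPM in non-treated cells (LFC 2.31 ± 0.15). NES, on the same list, was called lower, with 12 counts over the mercury libraries and 43 over the non-treated ones. Without non-treated replicate 1 the log2 fold change of NES was -1.13 (adjusted p = 0.225). The median LFC of the 9 tested astrocyte markers was -0.05. Of 16 circadian genes 2 rose and 0 fell, where 13.9% of all genes went each way, and none passed an LFC of 1.

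The largest rises also held genes outside the stress lists. LUCAT1, a long non-coding RNA that oxidant stress is known to raise, read 17.9, 19.5 and 17.2 CPM with mercury and 1.03, 1.23 and 0 CPM in non-treated cells (LFC 4.53 ± 0.67, adjusted p = 1.73e-07). FBXO32, a ubiquitin ligase subunit known from muscle wasting, had 33.7, 29.1 and 27.1 CPM with mercury and 1.8, 0.615 and 3.17 CPM in non-treated cells (LFC 3.97 ± 0.42, adjusted p = 5.60e-12). SPP1, the secreted phosphoprotein osteopontin, had 18.3, 18 and 16.9 CPM with mercury and 1.55, 1.23 and 0.289 CPM in non-treated cells (LFC 4.05 ± 0.63, adjusted p = 5.15e-07). All 3 were near 0 in non-treated cells and gave close values in the mercury libraries.

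Of 13 tested genes of the mitochondrial genome 2 rose and 1 fell, with a median LFC of 0.32 and none past an LFC of 1. Of all genes, 13.9% rose and 13.9% fell. In 7 of the 13 every mercury library was above every non-treated one and in 1 below, against 18.9% and 19.1% of all genes. When the 6 libraries were fitted alone, or without a filter on low counts, 8 of the 13 rose. MT-CO1, a core subunit of cytochrome oxidase, read 1412, 1302 and 1426 CPM with mercury and 783, 743 and 802 CPM in non-treated cells (LFC 0.83 ± 0.21, adjusted p = 0.00147), and MT-ND6, the single protein gene on the other strand of that genome, read 192, 229.6 and 254 CPM with mercury and 394, 434 and 418 CPM in non-treated cells (LFC -0.88 ± 0.31, adjusted p = 0.0255). The groups did not overlap for either gene, but the fall of MT-ND6 did not pass the test without mercury replicate 1 or 2 or without non-treated replicate 2 or 3. Of 22 interferon response genes 6 rose and 2 fell. HLA-C, a class I antigen-presenting molecule, rose with 24.9, 15.2 and 19.8 CPM with mercury and 9.01, 7.38 and 8.94 CPM in non-treated cells (LFC 1.23 ± 0.30), and IFITM3, which blocks virus entry, fell with 2.2, 1.86 and 3.96 CPM with mercury and 6.7, 9.53 and 6.35 CPM in non-treated cells (LFC -1.48 ± 0.45, adjusted p = 0.00853). Without mercury replicate 2 the log2 fold change of IFITM3 was -1.27 (adjusted p = 0.0608), and without non-treated replicate 2 it was -1.28 (adjusted p = 0.0525). ERBB2, a growth factor receptor, read 8.81, 6.2 and 15.5 CPM with mercury and 20.3, 15.1 and 26.8 CPM in non-treated cells (LFC -1.03 ± 0.28, adjusted p = 0.00271), and without mercury replicate 2 the log2 fold change of ERBB2 was -0.77 (adjusted p = 0.0560). Both kept their sign in these fits.

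Some genes were at or near 0 in 1 group, so that only a bound or a ratio with its counting interval can be given. HTRA3, a secreted serine protease, had 244 counts with mercury and 0 without, which makes it at least 91.4-fold higher against a floor of 3 counts over the group. RASD1, a Ras-related gene that glucocorticoids induce, had 95 counts against 0 and was at least 35.6-fold higher. On the side of the falls the counts were lower: CD180 had 1 count with mercury and 27 without, a ratio of 24.0 (95% interval of counting error 3.96 to 983), and OGFRP1 had 0 and 16 counts and was at least 4.74-fold lower. RASD1, CD180 and OGFRP1 were picked after their values were seen.

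**Figure D4:**
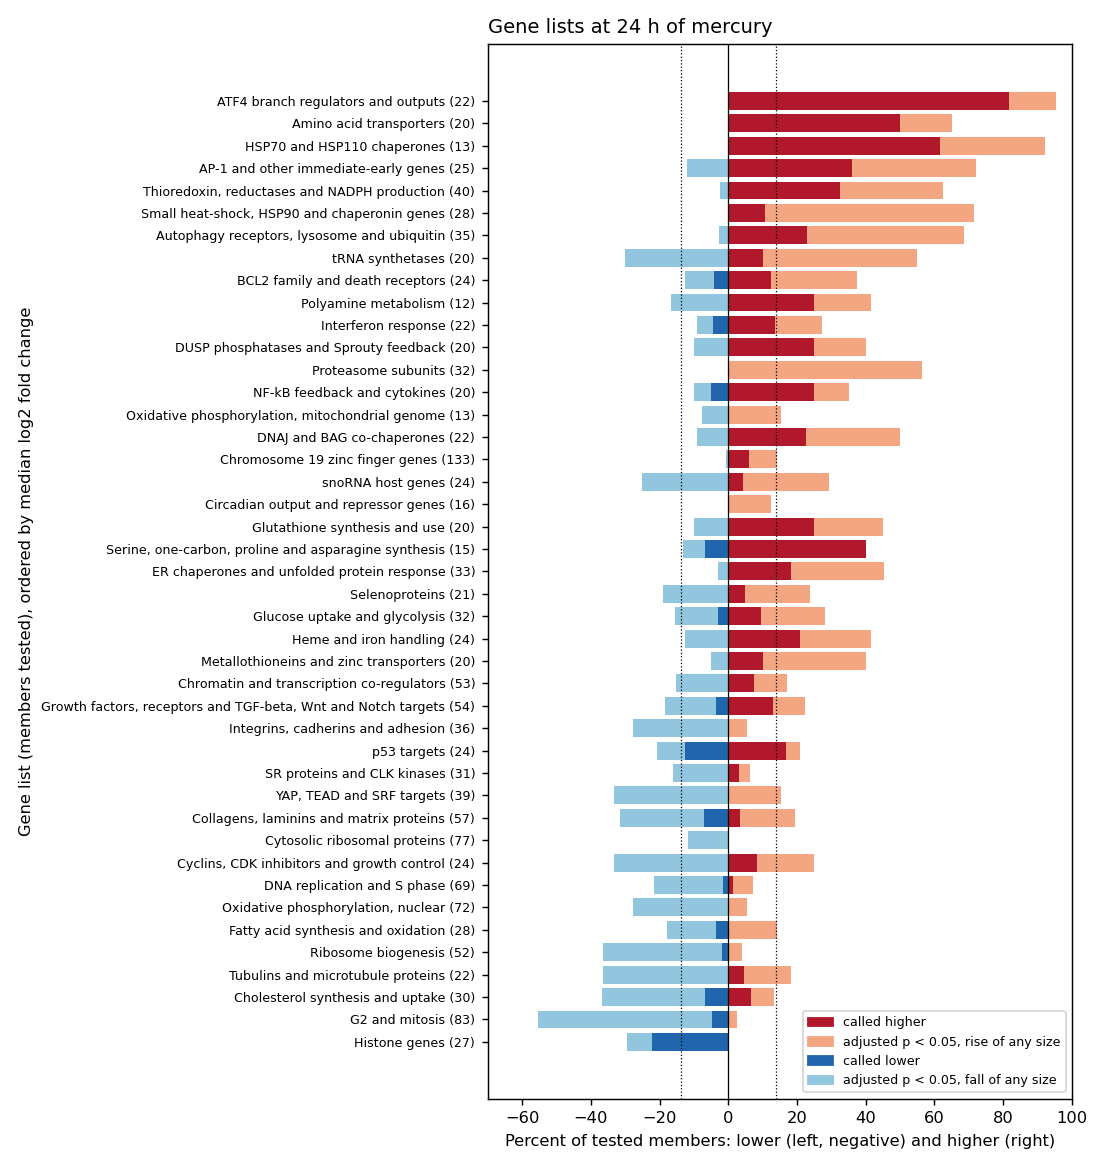
Percent of the tested members of each gene list that rose (right) or fell (left, as negative values) with mercury at 24 h; pale bars are changes of any size at an adjusted p under 0.05 and dark bars those also past an LFC of 1. Dotted lines mark the 13.9% of all tested genes in each direction, and lists are ordered by their median LFC, from histone genes at -0.64 to the ATF4 branch.

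The earlier mercury libraries and their own non-treated controls share no sample with those at 24 h, and they show when the genes called at 24 h began to move. At 12 h of mercury 319 genes were higher (2.58%) and 144 lower (1.17%), at 6 h 136 and 50 (1.1% and 0.405%), at 3 h 58 and 2 (0.47% and 0.0162%) and at 1.5 h 19 and 8 (0.154% and 0.0648%). Of the 598 genes higher at 24 h, the call was already made for 224 after 12 h and for 108 after 6 h, and for 49 and 15 after 3 and 1.5 h. Of the 323 lower genes, 59 were already called lower after 12 h, 16 after 6 h, 0 after 3 h and 5 after 1.5 h. None of the genes was called in the opposite direction at these 4 times. The sign was already that of 24 h for 438 of the 598 and 227 of the 323 genes at 3 h, and for 572 and 297 of them at 12 h. Median LFCs of the higher genes were 0.16, 0.27, 0.57 and 0.95 at 1.5, 3, 6 and 12 h, and those of the lower genes -0.10, -0.16, -0.40 and -0.68. CTDSP1 had an LFC of -0.40 at 3 h (adjusted p = 0.461), -1.42 at 6 h (adjusted p = 3.48e-08) and -2.50 at 12 h. MCM7 had -0.26 at 6 h (adjusted p = 0.253) and -1.46 at 12 h (adjusted p = 8.84e-14). HMOX1 by comparison had risen by 1.97 at 1.5 h and 4.69 at 3 h.

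**Figure D5:**
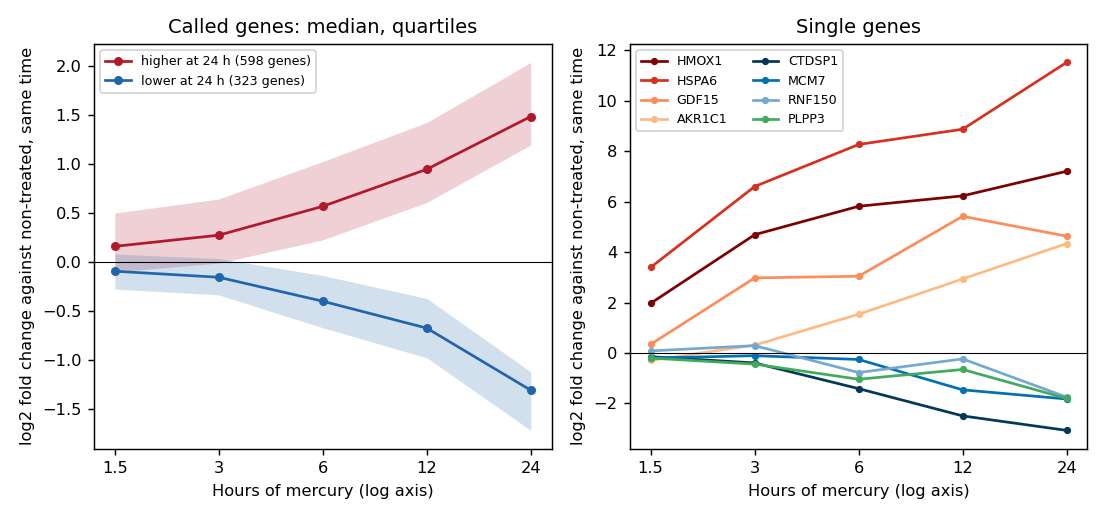
Left, median log2 fold change over time (points) with the quartiles (band) of the 598 genes called higher (red) and the 323 called lower (blue) at 24 h, each time point against its own non-treated libraries; the 24 h values are those that chose the genes. Right, the same quantity for 8 single genes, of which HMOX1 and HSPA6 are above 0 from 1.5 h on and MCM7 moves after 6 h.

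Few genes had an effect at 24 h that differed from the effect at 12 h when the difference itself was tested. The LFC was higher at 24 h than at 12 h in 14 genes (0.113%) and lower in 7 (0.0567%), and 1268 genes had an unadjusted p under 0.05. AKR1C1 went from 127 ± 9.46 CPM (SD, n = 3) at 12 h of mercury to 381 ± 28.8 CPM at 24 h while non-treated cells stayed near 17 to 19 CPM, a difference in LFC of 1.40 (adjusted p = 9.37e-05). ID2, an inhibitor of differentiation factors, went from 59 ± 7.63 CPM to 160.4 ± 14.7 CPM (1.38, adjusted p = 6.83e-05), and MIR22HG, the host transcript of a microRNA, from 30.7 ± 7.69 CPM to 75.8 ± 9.25 CPM (1.43, adjusted p = 0.00581). Among the genes with a lower LFC at 24 h, the lipid phosphatase PLPP3 went from 23.5 ± 7.64 CPM to 14.8 ± 1.32 CPM with mercury and from 36.8 ± 5.79 CPM to 51.5 ± 5.94 CPM without (-1.15, adjusted p = 0.0232), so the groups moved apart from both sides. RNF150 and ITGBL1 also fell with mercury and went up without it between these times, and FOXO3 was above its control at 12 h and below it at 24 h (-1.06, adjusted p = 5.36e-04). The total of 21 genes depended on single libraries. It was 11 and 13 without mercury replicate 1 or 2 of 24 h, 12 and 13 without non-treated replicate 1 or 2 of 24 h, 10 without mercury replicate 1 of 12 h, and 13 and 9 without non-treated replicate 1 or 2 of 12 h.

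Set directly against the other metals at 24 h, with no use of the non-treated libraries, mercury gave 254 higher and 91 lower genes than arsenic (2.06% and 0.737%) and 338 higher and 202 lower genes than cadmium (2.74% and 1.64%). Concentrations differ between the metals (20 µM mercury, 2.55 µM arsenic and 2.3 µM cadmium), so these comparisons are of the treatments as given. The paper matched these doses by toxicity, each set to kill the same share of cells in a longer exposure. Of the 323 genes lower than in non-treated cells, 58 were also lower than with arsenic and 138 lower than with cadmium, and of the 598 higher genes 153 and 257 were higher; these contrasts share the mercury libraries with the one that chose the genes, so the counts are no independent support. UCP2, a mitochondrial carrier, had 11.7 ± 1.4 CPM with mercury, 35 ± 9.77 CPM with arsenic and 31.8 ± 2.96 CPM with cadmium (mercury against arsenic -1.58, adjusted p = 3.67e-07). MEGF6 had 3.51 ± 1.28 CPM, 12.5 ± 0.381 CPM and 19.7 ± 5.48 CPM, lower with mercury than with either (LFC -1.82 and -2.48). SAMD11 stood at 6.44 ± 2.91 CPM against 23.2 ± 5.36 CPM with arsenic (-1.84, adjusted p = 1.10e-05). In these 3 genes the mean was lower with mercury than with arsenic.

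Heat-shock and immediate-early genes were among those higher with mercury than with arsenic. HSPA6 had 389 ± 7.92 CPM with mercury, 1.52 ± 1.05 CPM with arsenic and 204 ± 11.7 CPM with cadmium, and ZFAND2A had 208 ± 11.7 CPM, 11.3 ± 2.57 CPM and 91.5 ± 21.9 CPM. Of 13 HSP70 and HSP110 genes 6 passed the limit over arsenic and 1 over cadmium, and of 25 immediate-early genes 12 and 4 did. In the ATF4 branch, 3 of 22 genes passed over arsenic and 16 over cadmium. GDF15, for one, had 145 ± 20.9 CPM with mercury, 88.7 ± 12.2 CPM with arsenic and 22.3 ± 7.96 CPM with cadmium. The repulsive guidance receptor gene UNC5B was at 42.3 ± 4.97 CPM with mercury and 6.03 ± 1.01 CPM with cadmium (2.78, adjusted p = 3.79e-13). Metallothioneins were the genes furthest below cadmium: MT2A had 2922 ± 102 CPM with mercury and 22870.0 ± 1811 CPM with cadmium (LFC -2.97, adjusted p = 2.16e-19), and MT1E had 332 ± 9.47 CPM and 3797 ± 135 CPM (LFC -3.52). Genes of G2 and mitosis had a median LFC of -0.22 against arsenic and -0.25 against cadmium, where the medians of all genes were -0.01 and -0.00145, and 0 and 2 of the 83 passed the limit downwards.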

How the data were processed

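3′ end mRNA sequencing (QuantSeq 3′ FWD) was run on total RNA of 60 libraries, 3 for each of 20 groups. Per the submitters' notes and methods, the authors aligned single-end reads to GRCh38 with STAR 2.7.9a and counted them, strand-specifically, on GENCODE exons with summarizeOverlaps in Union mode, which leaves out a read that falls on several genes. The table they deposited gives raw counts per gene, not normalized, and 92 spike-in sequences with 0 counts were left out. Depth over all libraries was 2215276 to 4404609 counts, at which 3 counts are near 1 CPM.

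All 60 libraries were fitted in edgeR 4.0.16 (R 4.3.3) with 1 coefficient per group, TMM factors (0.977 to 1.03 for the 6 libraries), filterByExpr (minimum count 10, minimum total 15) and the quasi-likelihood test with Benjamini-Hochberg adjustment over 12341 genes. Genes were called at an adjusted p under 0.05 and an LFC beyond 1 in either direction. Simulated data with 200 changed genes, for mercury 24 h against non-treated over 12234 genes, gave 196 of them and 3 unchanged genes. The changed genes had more than 20 counts on average, their set changes all lay beyond an LFC of 1, and counts were drawn with the fitted spread. Changes at or below that limit and changes in genes with fewer counts were not simulated, so the result does not cover them. Named genes are the largest changes with at least 20 counts on average over the 6 libraries and up to 3 genes each way per list, of 48 lists; CDC20, H1-10, PLK3, COL5A2, HSPA9, HSPH1, DNAJB6, DNAJA1, PAPPA2, ABHD3, CHAC1, AKR1C3, HES1 and MT-ND6 were named beyond this rule after their values were seen. Members and lists were chosen with earlier results of these data known. Alternatives were RLE factors, DESeq2 1.42.0 with and without ashr 2.2.63, other filters, the 6 libraries alone, a test against an LFC of 1, all non-treated groups as control, a replicate block, leaving out each library and, added after seeing the data, GC offsets. GC content came from the longest GENCODE v44 transcript, promoters from RefSeq tables. Intervals cover counting error only.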

Additional observations from a re-analysis of the deposited data

Results flagged for a closer look

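The difference between the effects of mercury at 24 h and at 12 h was tested as an interaction, and it passed for 14 genes with a higher LFC at 24 h and 7 with a lower one. The higher ones included WDR47 (difference in LFC 1.87), ZNF493 (1.52), MIR22HG (1.43), AKR1C1 (1.40) and ID2 (1.38), with adjusted p from 6.83e-05 for ID2 to 0.0484 for WDR47. The lower ones included RNF150 (-1.52), PCCA-DT (-1.32), ITGBL1 (-1.18), PLPP3 (-1.15) and FOXO3 (-1.06). For WDR47, ZNF493, PCCA-DT and FOXO3 the estimate at 12 h had the opposite sign to that at 24 h, and the non-treated mean of FOXO3 was 61.3 CPM at 12 h and 95.4 CPM at 24 h.

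Tested directly at 24 h, 254 genes were higher and 91 lower with mercury than with arsenic, and 338 were higher and 202 lower than with cadmium. The gene ENSG00000289942 on chromosome 4, which has no symbol in the table, was at 217 ± 12.9 CPM (SD, n = 3) with mercury, 109 ± 8.3 CPM without metal and 1444 ± 57.8 CPM with cadmium. Groups of 3 libraries were too small for the test of single outlying samples.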

How the results depend on the processing

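Counts of 598 higher and 323 lower genes stayed within 1.5 times under RLE factors, DESeq2, no filter, a minimum count of 30, the 6 libraries alone, non-treated cells of all time points and both GC offsets. The genes behind these counts were partly others. With non-treated cells of all time points, 438 of the 598 and 186 of the 323 genes kept their call, and all kept their sign. Of the 323 lower genes, 247 had a higher estimate in non-treated cells at 24 h than at 12 h. Of the 598 higher genes, 383 had a lower one. That comparison shares the non-treated 24 h libraries with the one that chose the genes. The test against an LFC of 1 left 156 higher and 32 lower genes, and shrinkage by ashr left 367 and 127, since both ask for more than an LFC estimate past 1. Leaving out 1 library gave 538 to 753 higher and 267 to 354 lower genes; the most higher genes came without non-treated replicate 3. In all 6 of these fits, 360 of the 598 and 139 of the 323 genes kept their call. For genes whose effect differed between 24 h and 12 h the range was 9 to 26 against 21, for genes that differ between mercury and arsenic at 24 h it was 278 to 350 against 345, and for genes that differ between mercury and cadmium at 24 h it was 414 to 603 against 540. With a replicate block the counts were 596 and 321, then 18, 342 and 528. Correlations of same-numbered deviations were -0.06, -0.03 and -0.16. None was positive, but with 3 libraries per group these values cannot tell whether same-numbered libraries were handled together. Of 147 genes under the rule for named genes, none changed sign under any of the 17 alternatives in which it was tested (131 of them with a minimum count of 30). The test against an LFC of 1 lost 73 of them and the other alternatives 20, among them SLC2A10, SNHG21 and MT2A; CNP passed without non-treated replicate 1. Genes without about 10 counts in at least 3 of the 60 libraries were left out of the main test. Some tested genes had fewer counts than that in the 6 libraries compared here.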
